A study of Mus musculus with 4 samples.

Results

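Interferon-stimulated genes are the genes that cells turn on when interferon reaches its receptor. The set described here was a list of 37 such genes, taken by name but drawn up with earlier results of these data known, and all 37 were found among the 45706 genes of the count table. Of these, 33 reached 1 CPM (count per 1e6 counts of the scaled library) in at least 1 of 4 libraries, as did 17332 genes in all. The other 4, Oas1a, Oas3, Oasl1 and Mx1, stayed below 1 CPM in all 4 libraries and entered no count of members below.

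The libraries were made from regenerating mouse digit tips taken 14 days after amputation, 1 library for each of 4 genotypes: wildtype and conditional knockouts (cKO) of Sp6, of Sp8 and of both (Sp6+Sp8 cKO). Sp6 and Sp8 are related zinc-finger transcription factors of limb and skin epithelium. For cKO induction, tamoxifen at 75 mg/kg was injected daily for 5 days, with 5 days of rest before amputation. Treatment of the wildtype mice, the Cre driver, strain, age, sex and numbers of animals or digits per library were not given in the sources used here. Labels put the 3 cKO libraries in batch 1 and the wildtype library in batch 3, so in each comparison with wildtype batch and knockout cannot be told apart. With 1 library per group there was no replicate check and no test: every difference below is between 2 libraries, and the 95% intervals cover counting error only. Where 4 values follow each other, their order is wildtype, Sp6 cKO, Sp8 cKO, Sp6+Sp8 cKO.

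Type I interferons bind the receptor Ifnar1 and Ifnar2, whose kinases Jak1 and Tyk2 phosphorylate transcription factors of the STAT family, among them Stat2. Stat2 and Irf9 belong to a complex that binds the interferon-stimulated response element (ISRE) in the promoters of target genes. Interferon gamma acts through a different element, GAS, and favours the guanylate-binding and immunity-related GTPases. In skin, keratinocytes and immune cells both express interferon-stimulated genes.

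Whole-series checks were brief. Totals lay between 12588511 counts (Sp8 cKO) and 21834883 (wildtype). Sp6 stood at 97.7 CPM in wildtype and 29.2, 95.6 and 57.8 in the Sp6, Sp8 and Sp6+Sp8 cKO libraries. Sp8 stood at 63.9, 66.1, 16.8 and 13.4 CPM in the same order. Each targeted gene was thus lower in the libraries labelled with its deletion, Sp6 by the smaller margin in Sp6+Sp8 cKO. Keratinocyte, nail keratin and bone and connective tissue markers were abundant in all 4 libraries, as fits the digit tip label. Xist, which coats the silenced X in females, was 27.9 CPM in Sp8 cKO. It was 1526, 1963 and 3528 CPM in the wildtype, Sp6 and Sp6+Sp8 cKO libraries. Kdm5d, on the Y chromosome, stood at 43.2 CPM in wildtype and 35.7, 65.3 and 32.0 in the Sp6, Sp8 and Sp6+Sp8 cKO libraries. Male tissue was thus in all 4 libraries. The sex makeup of the Sp8 cKO library differed from the rest, which may also differ among themselves. The part of sex makeup in the differences between libraries was not tested.

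Promoter sequences show what the members share in DNA. RefSeq promoters (GRCm38.p6, 250 bases before to 50 after the start) were found for 26 of the 37 members. An ISRE-like motif, GAAA repeated after any 2 bases, on either strand and with overlapping matches allowed, occurred in 17 of 26 members (65.4%) and in 3.99% of 27025 genes with a promoter in the table. A GAS-like motif, TTCNNNGAA, which reads the same on both strands, occurred in 6 of 26 members (23.1%) and in 9.55% of genes. Windows of 100 bases upstream of the start, not all at the same distance from it, are printed for 6 members that the results below turn on. They run 5′ to 3′ on the gene's own strand, with ISRE-like matches in capitals.
Isg15, chr4:156200839-156200938, minus strand: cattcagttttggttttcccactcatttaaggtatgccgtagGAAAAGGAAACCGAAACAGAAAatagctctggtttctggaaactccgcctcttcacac
Igtp, chr11:58199456-58199555, plus strand: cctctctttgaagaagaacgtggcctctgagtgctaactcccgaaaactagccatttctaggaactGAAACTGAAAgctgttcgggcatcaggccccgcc
Ifit3, chr19:34583349-34583448, plus strand: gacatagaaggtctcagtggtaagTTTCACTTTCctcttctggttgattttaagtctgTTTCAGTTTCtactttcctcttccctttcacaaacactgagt
Ifit3b, chr19:34607745-34607844, plus strand: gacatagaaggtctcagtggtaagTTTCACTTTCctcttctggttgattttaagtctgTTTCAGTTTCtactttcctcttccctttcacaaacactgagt
Oasl2, chr5:114896834-114896933, plus strand: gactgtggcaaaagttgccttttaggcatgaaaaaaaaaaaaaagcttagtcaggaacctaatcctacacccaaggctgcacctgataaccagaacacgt
Xaf1, chr11:72301529-72301628, plus strand: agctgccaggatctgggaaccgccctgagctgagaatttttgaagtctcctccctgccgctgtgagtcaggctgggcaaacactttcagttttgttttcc
The Isg15 window held 3 overlapping matches. Counted from the start, the Ifit3 window ran from base -180 to -81 and the Ifit3b window from -212 to -113. Placed at these different distances, which were chosen by hand, they were identical at 100 of 100 bases. Neither Oasl2 nor Xaf1 held the motif anywhere in its RefSeq promoter, which says only that these letters are not in that stretch.

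The Sp8 cKO library had the highest level of most members. It was the highest of the 4 libraries for 21 of the 33 measured members, against 22.5% of all measured genes, and the lowest for 2. Isg15, Usp18 and Gvin1, 3 of the 21, reached 1 CPM in Sp8 cKO alone and so entered the 33 only through that library. Among the 29 members with a mean of at least 1 CPM over the 4 libraries, Sp8 cKO was the highest for 17, against 22.2% of genes with such a mean. Sp6 cKO was the lowest for 12 (21.2% of all genes) and Sp6+Sp8 cKO for 11 (32.8%). Summed over the 37 members, the level was 200.4 CPM in wildtype (95% Poisson interval 194.5 to 206.5) and 194.2 (186.7 to 202.0), 247.2 (238.6 to 256.0) and 205.6 (198.5 to 212.9) in the Sp6, Sp8 and Sp6+Sp8 cKO libraries. Gvin1 and Xaf1, described below, weigh on these sums. Without them the sums were 195.0, 166.7, 223.5 and 180.0 CPM, again highest in Sp8 cKO and lowest in Sp6 cKO. Because the libraries are of whole tissue, more cells of a type and more RNA per cell cannot be told apart in any of these differences.

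**Figure D1:**
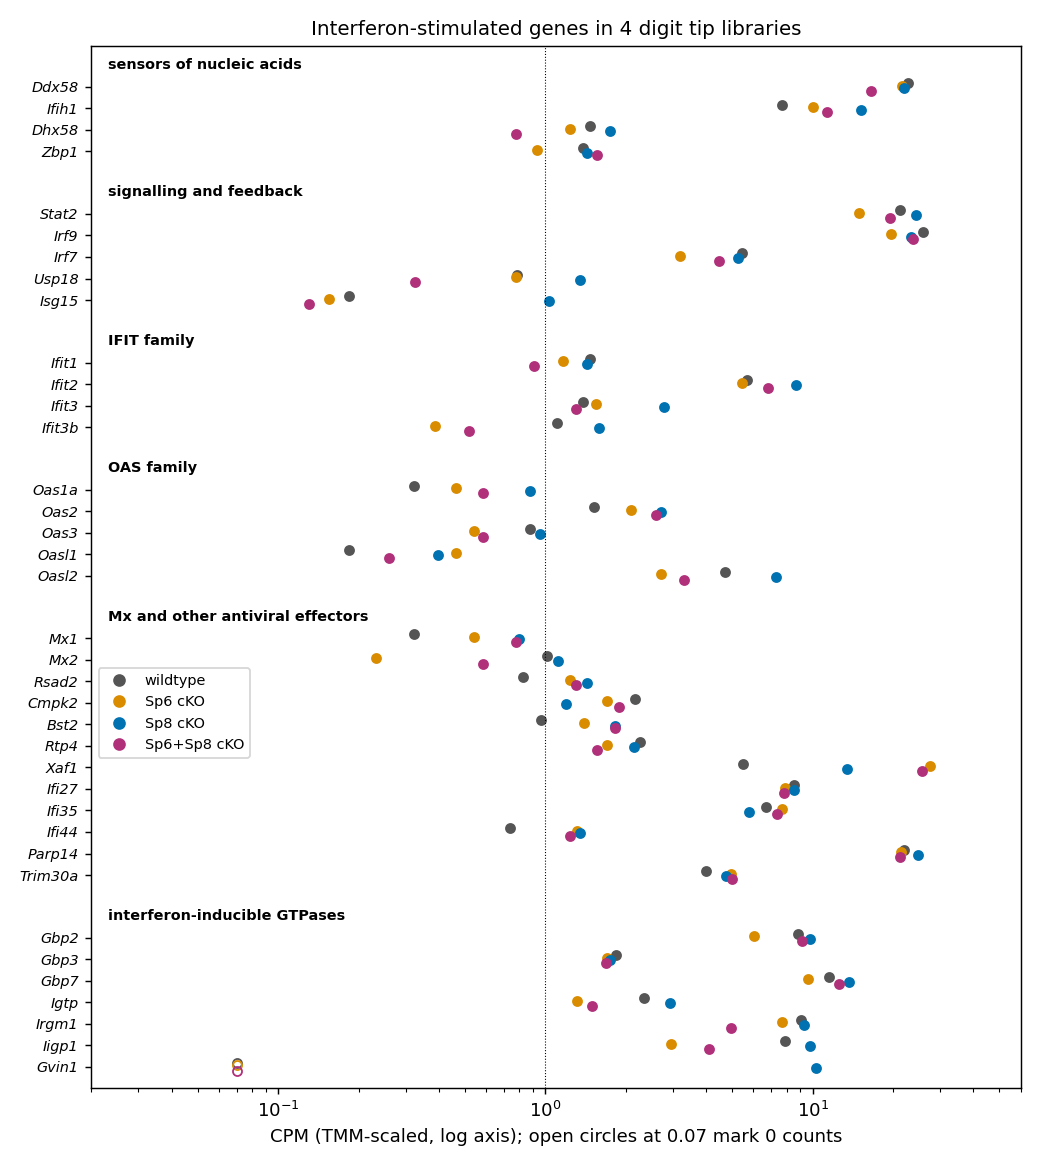
Level of each of the 37 members in the 4 libraries, in CPM on a log axis, grouped by role. Each point is 1 library, the dotted line marks 1 CPM, and open circles mark Gvin1 at 0 counts. Sp8 cKO (blue) was the highest library for 21 of the 33 measured members.

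Members were counted as higher or lower by a size rule: a log2 ratio of 1 or more up or down (a 2-fold difference), 1 CPM or more in 1 of the 2 libraries, and an exact 95% counting interval of the ratio that excludes 1. In Sp8 cKO against Sp6 cKO, within batch 1, 7 of 33 members were higher and 1 was lower. Of all genes compared, 1.75% were higher and 1.35% lower by the same rule. The members stood at 27.5 CPM or less, and among genes whose higher CPM lay between 1 and 30 these shares were 2.47% and 1.99%. The members' median log2 ratio was 0.45, against 0.00 over all measured genes, and 29 of 33 lay above 0. The higher members were Isg15, Mx2, Ifit3b, Iigp1, Oasl2, Igtp and Gvin1, and the lower one was Xaf1. Of the 7, Isg15, Mx2, Ifit3b and Gvin1 reached 1 CPM in Sp8 cKO and not in Sp6 cKO, so they could be called in that direction only. With a mean of at least 1 CPM over the 4 libraries required instead, 4 of 29 members were higher and 1 was lower (1.29% and 0.975% of all genes), and Gvin1 was still among the 4. At any size, the counting interval lay above 1 for 15 members and below 1 for 1, while 10.3% and 10.6% of all genes did so.

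In Sp6+Sp8 cKO against Sp8 cKO, 8 members were lower and none was higher, while 2.8% of all genes were lower and 1.88% higher. The 8 were Dhx58, Usp18, Isg15, Ifit3, Ifit3b, Oasl2, Iigp1 and Gvin1, and the median log2 ratio was -0.32, against -0.02 over all genes. Of the 8, Dhx58, Usp18, Isg15, Ifit3b and Gvin1 reached 1 CPM in Sp8 cKO and not in Sp6+Sp8 cKO, so they could be called lower only. With the minimum set on the mean, 5 of 29 were lower, against 2.24% of all genes. This comparison and the one before share the Sp8 cKO library, so a high value in that library enters both. In Sp6+Sp8 cKO against Sp6 cKO no member was past the rule in either direction, where 1.89% of all genes were higher and 2.08% lower. Of the 33 members, 28 reached 1 CPM in at least 1 of these 2 libraries, and only those could be called. The median log2 ratio over the 33 was 0.06, with members from -1.0 (Usp18) to 0.98 (Mx2). Usp18 and Mx2 were below 1 CPM in both libraries and so were not open to a call. At any size, the counting interval lay above 1 for 4 of 33 members and below 1 for 2, while 16.6% and 18.8% of all genes did so.

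**Figure D2:**
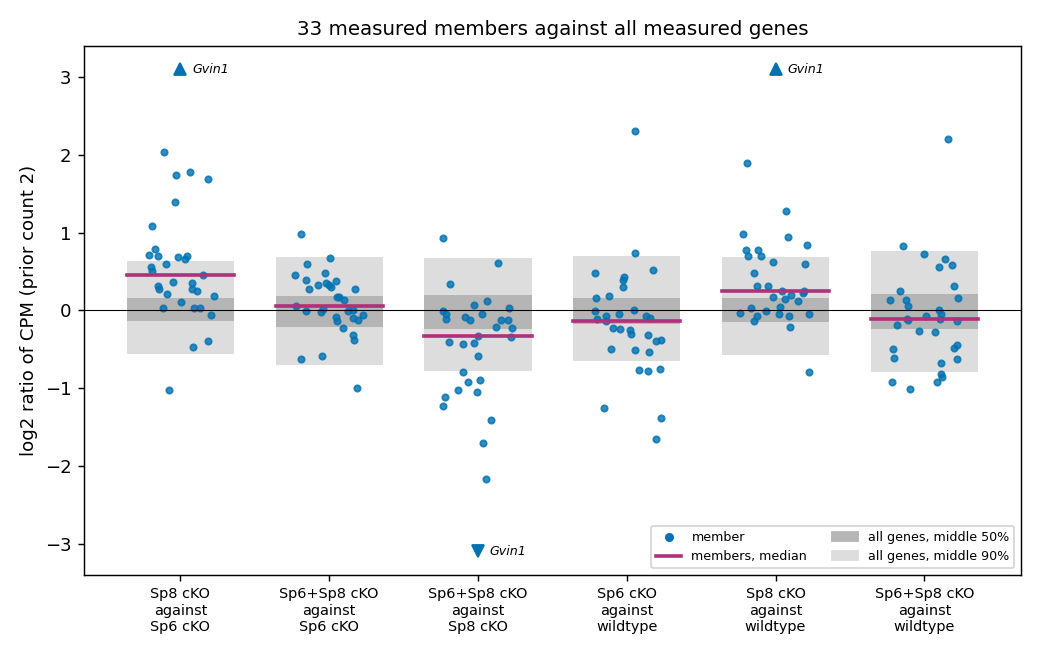
log2 ratios of the 33 measured members (points) in the 6 comparisons, with their median (line) over the middle 50% and 90% of all 17332 measured genes (grey). Triangles mark Gvin1, which lies beyond the axis. The members' median was 0.45 in Sp8 cKO against Sp6 cKO and -0.32 in Sp6+Sp8 cKO against Sp8 cKO. Comparisons that share a library are not independent.

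**Figure D3:**
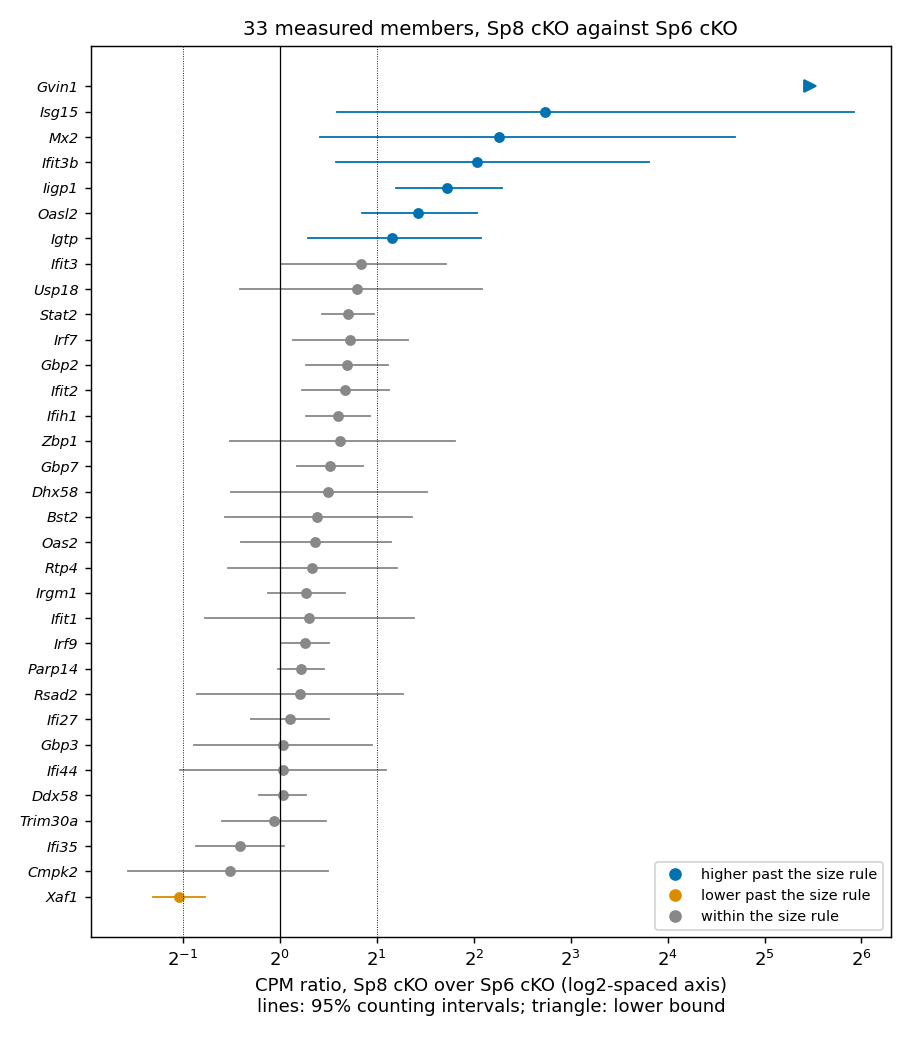
Ratio of CPM in Sp8 cKO over Sp6 cKO for the 33 measured members, on a log2-spaced axis, with 95% counting intervals. The triangle marks the lower bound for Gvin1, which had 0 counts in Sp6 cKO. Dotted lines mark 2-fold. The members with the largest ratios other than Gvin1, Isg15 and Mx2, have the widest intervals.

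Among the sensors of foreign nucleic acids, the levels were near each other for the RIG-I gene and differed by less than 2-fold for MDA5. Ddx58, which encodes RIG-I, stood at 22.7 CPM in wildtype and 21.6, 22 and 16.6 in the Sp6, Sp8 and Sp6+Sp8 cKO libraries. Sp6+Sp8 cKO was the low library, 1.33-fold below Sp8 cKO (95% counting interval 1.12 to 1.58). Ifih1, which encodes MDA5, a sensor of long double-stranded RNA, stood at 7.68, 10.1, 15.2 and 11.4 CPM in the same order. It was 1.51-fold higher in Sp8 cKO than in Sp6 cKO (1.20 to 1.90), and wildtype was the lowest library. Dhx58, which encodes LGP2, a regulator of those sensors, had 32, 16, 22 and 12 counts, or 1.47, 1.24, 1.75 and 0.78 CPM. It was 2.24-fold lower in Sp6+Sp8 cKO than in Sp8 cKO (1.06 to 4.96). Zbp1, a sensor of Z-form nucleic acids, had 12 to 30 counts and was past the rule in no comparison.

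Among the genes that carry and limit the interferon signal, the transcription factors stayed within the size rule and the scarce feedback genes Isg15 and Usp18 passed it. Stat2 stood at 21.3 CPM in wildtype and 15, 24.4 and 19.4 in the Sp6, Sp8 and Sp6+Sp8 cKO libraries. Sp6 cKO was the low library, and Sp8 cKO was 1.63-fold above it (1.36 to 1.96), inside the size rule. Irf9, the DNA-binding partner of Stat2, stood at 25.8, 19.6, 23.4 and 23.9 CPM, with Sp6 cKO again lowest. Irf7, the factor that amplifies type I interferon production, stood at 5.43, 3.18, 5.24 and 4.48 CPM, and Sp8 cKO was 1.65-fold above Sp6 cKO (1.1 to 2.5). All 3 had their lowest value in Sp6 cKO and were past the rule in no comparison. Isg15 (chromosome 4, 156199424 to 156200818, minus strand), a ubiquitin-like modifier among the most inducible interferon targets, had 4, 2, 13 and 2 counts, or 0.18, 0.16, 1.03 and 0.13 CPM. Sp8 cKO was 6.66-fold above Sp6 cKO, but from so few counts that the interval runs from 1.51 to 60.7. Usp18, the protease that removes Isg15 from proteins and damps the receptor, had 17, 10, 17 and 5 counts. It was 4.15-fold lower in Sp6+Sp8 cKO than in Sp8 cKO (1.47 to 14.4), and its 1.74-fold difference between Sp8 cKO and Sp6 cKO had an interval that includes 1 (0.75 to 4.25).

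All 4 members of the IFIT family, proteins that bind viral RNA and lie together on chromosome 19, had a log2 ratio above 0 in Sp8 cKO against Sp6 cKO, with 1 of them past the size rule. Ifit3b had 24 counts in wildtype and 5, 20 and 8 in the Sp6, Sp8 and Sp6+Sp8 cKO libraries, 4.10-fold higher in Sp8 cKO than in Sp6 cKO (1.49 to 14.0). Ifit3 had 30, 20, 35 and 20 counts and was 1.79-fold higher (1.01 to 3.28). These 2 genes share sequence: 61.8% of the 31-base words of Ifit3 transcripts also occur in Ifit3b and 54.1% of those of Ifit3b in Ifit3, so the division of reads between them is uncertain. Their summed level was 2.48 CPM in wildtype and 1.94, 4.37 and 1.82 in the Sp6, Sp8 and Sp6+Sp8 cKO libraries, so Sp8 cKO was also the highest library for the pair together. Ifit2 stood at 5.70, 5.43, 8.65 and 6.82 CPM, and Ifit1 had 14 to 32 counts.

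Of the OAS family, enzymes and related proteins that respond to double-stranded RNA, only Oas2 and Oasl2 reached 1 CPM. Oasl2 (chromosome 5, 114896936 to 114912234, plus strand), which lacks a match to the ISRE-like letters in its promoter window, stood at 4.69 CPM in wildtype and 2.71, 7.30 and 3.32 in the Sp6, Sp8 and Sp6+Sp8 cKO libraries, from 102, 35, 92 and 51 counts. Sp8 cKO was 2.69-fold above Sp6 cKO (1.81 to 4.09), and Sp6+Sp8 cKO was 2.20-fold below Sp8 cKO (1.55 to 3.17). Oas2 stood at 1.52, 2.09, 2.70 and 2.60 CPM and was past the rule in no comparison. Oas1a, Oas3 and Oasl1 had 4 to 19 counts in each library, too few for a difference of this size to be read.

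The Mx and other antiviral effectors held 1 higher and 1 lower member in Sp8 cKO against Sp6 cKO, Mx2 and Xaf1. Mx2, a dynamin-like antiviral GTPase, had 22 counts in wildtype and 3, 14 and 9 in the Sp6, Sp8 and Sp6+Sp8 cKO libraries. It was 4.78-fold higher in Sp8 cKO than in Sp6 cKO (1.33 to 25.9). Parp14, a mono-ADP-ribosyltransferase, stood at 22, 21.4, 24.9 and 21.3 CPM, and Ifi27, a small hydrophobic membrane protein, at 8.56, 7.91, 8.49 and 7.80 CPM. Neither differed beyond its counting interval among the 3 cKO libraries. The other measured effectors, Rsad2 (viperin), its neighbour Cmpk2, Bst2 (tetherin), Rtp4, Ifi35, Ifi44 and Trim30a, were past the rule in no comparison and had log2 ratios of Sp8 cKO over Sp6 cKO between -0.48 (Cmpk2) and 0.36 (Bst2). Their levels across the libraries were 0.83 to 1.43 CPM for Rsad2, 1.19 to 2.16 for Cmpk2, 0.97 to 1.83 for Bst2, 1.56 to 2.25 for Rtp4, 5.80 to 7.68 for Ifi35, 0.74 to 1.35 for Ifi44 and 4.0 to 5.0 for Trim30a. Mx1 had 7 to 12 counts in each library.

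Xaf1 (chromosome 11, 72301629 to 72313733, plus strand), an interferon-induced antagonist of the apoptosis inhibitor Xiap, had the reverse pattern. It had 119 counts in wildtype and 355, 169 and 395 in the Sp6, Sp8 and Sp6+Sp8 cKO libraries, or 5.47, 27.5, 13.4 and 25.7 CPM. Both libraries labelled with Sp6 deletion were high, Sp8 cKO was intermediate and wildtype was low. Sp8 cKO was 2.05-fold below Sp6 cKO (1.70 to 2.48), while Sp6+Sp8 cKO and Sp6 cKO differed by 1.07-fold with an interval that includes 1 (0.93 to 1.24). Against wildtype, Xaf1 was 5.03-fold higher in Sp6 cKO (4.08 to 6.24), 2.45-fold in Sp8 cKO (1.93 to 3.13) and 4.69-fold in Sp6+Sp8 cKO (3.81 to 5.81). Xaf1 lies 24.7 Mb from Sp6 on the same chromosome. Its 10 nearest measured protein-coding neighbours, 5 on each side and chosen after Xaf1 was seen, were past the rule in none of the 6 comparisons. Their log2 ratios against wildtype in Sp6 cKO ran from -0.42 to 0.75.

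The summed Mx and effector group, with Xaf1 in it, was 55.1 CPM in wildtype and 77.6, 67.2 and 76.2 in the Sp6, Sp8 and Sp6+Sp8 cKO libraries. In Sp8 cKO over Sp6 cKO the ratio of that sum was 0.87 (0.79 to 0.95), and without Xaf1 it was 1.07 (0.96 to 1.20), an interval that includes 1. The same ratio was 1.20 (1.05 to 1.36) for the sensors, 1.43 (1.27 to 1.61) for signalling and feedback, 1.69 (1.33 to 2.17) for the IFIT family, 1.95 (1.48 to 2.58) for the OAS family and 1.96 (1.73 to 2.23) for the GTPases, or 1.61 (1.41 to 1.84) without Gvin1.

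**Figure D4:**
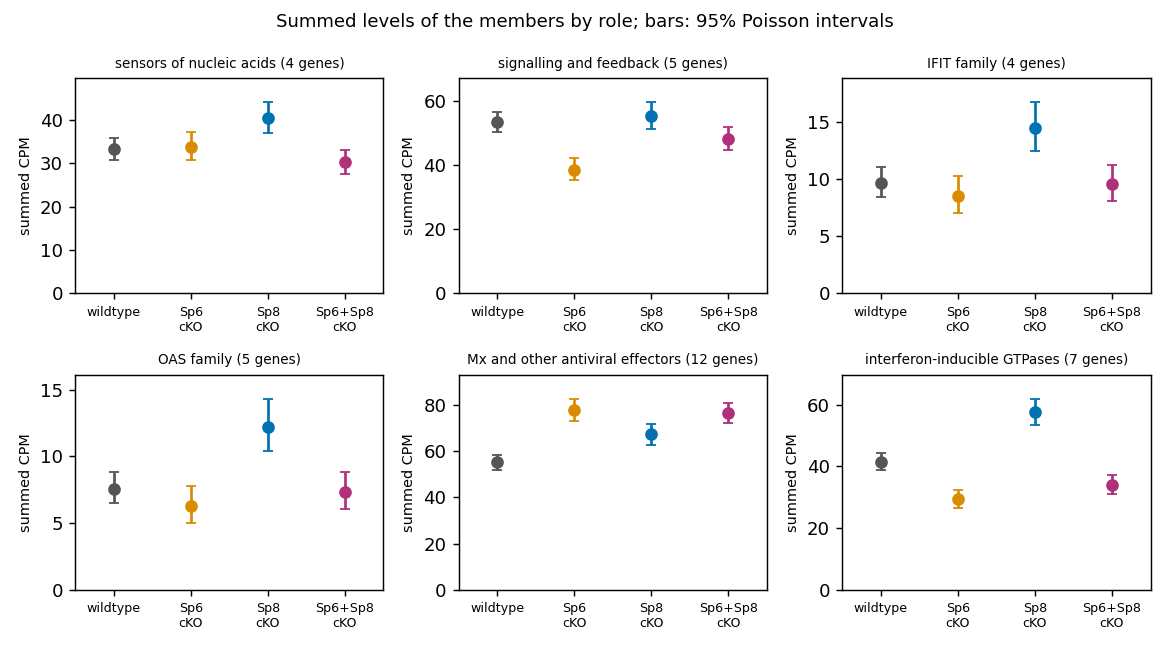
Summed CPM of the members of each role in the 4 libraries, with 95% Poisson intervals that cover counting error only. Each point is 1 library. Sp6 cKO was the highest library in the Mx and effector group, which holds Xaf1, and Sp8 cKO in each of the others.

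The interferon-inducible GTPases, which attack the vacuoles and membranes of intracellular pathogens, held 3 of the 7 higher members. Iigp1, an immunity-related GTPase, had 171 counts in wildtype and 38, 123 and 63 in the Sp6, Sp8 and Sp6+Sp8 cKO libraries, or 7.87, 2.95, 9.76 and 4.10 CPM. Wildtype and Sp8 cKO were high and both libraries with Sp6 deletion were low. Sp8 cKO was 3.31-fold above Sp6 cKO (2.29 to 4.90), and Sp6+Sp8 cKO was 2.39-fold below Sp8 cKO (1.75 to 3.28). Igtp (chromosome 11, 58199556 to 58207591, plus strand), a GTPase of the same family also called Irgm3, had 51, 17, 37 and 23 counts. It was 2.23-fold higher in Sp8 cKO than in Sp6 cKO (1.22 to 4.22). Irgm1, a regulator of that family, stood at 9.06, 7.68, 9.29 and 4.94 CPM, with Sp6+Sp8 cKO 1.88-fold below Sp8 cKO (1.40 to 2.54) and inside the rule. The guanylate-binding proteins were flatter. Gbp2 stood at 8.83, 6.05, 9.76 and 9.16 CPM and Gbp7 at 11.5, 9.62, 13.7 and 12.6 CPM, each lowest in Sp6 cKO, and Gbp3 at 1.69 to 1.84 CPM.

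Gvin1 (chromosome 7, 106156556 to 106215326, minus strand), a very large interferon-inducible GTPase gene, had 130 counts in Sp8 cKO and 0 in each of the other libraries. Taken at face value it was at least 44.4-fold higher in Sp8 cKO than in Sp6 cKO, at least 74.8-fold higher than in wildtype, and at least 52.9-fold lower in Sp6+Sp8 cKO than in Sp8 cKO, each against a floor of 3 counts. However, 99.0% of the 31-base words in Gvin1 transcripts also occur in Gm4070, a gene model on the same chromosome, so estimated counts cannot separate the 2 well. Gm4070 had 314 counts in wildtype and 152, 147 and 159 in the Sp6, Sp8 and Sp6+Sp8 cKO libraries. Summed, the pair stood at 14.4, 11.8, 22 and 10.3 CPM, and Sp8 cKO was 1.87-fold above Sp6 cKO (1.53 to 2.29), inside the size rule. Gm1966, which shares 14.4% of the words of Gvin1, had 55, 1, 49 and 0 counts. How reads were divided among these copies was not tested. With Gvin1 at its bounds it is still the most extreme member, so the members' median log2 ratios of 0.45 and -0.32 cannot move.

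**Figure D5:**
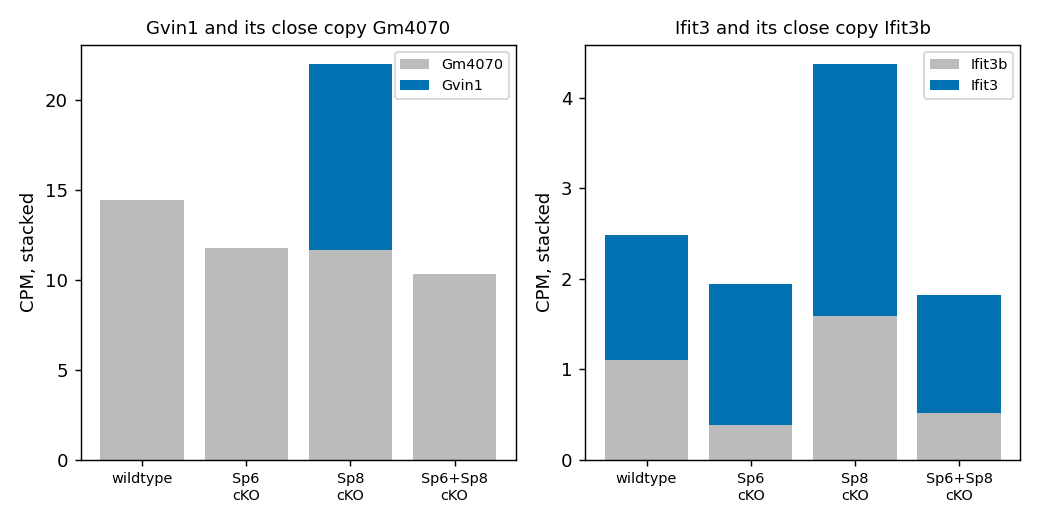
Stacked CPM of Gvin1 with Gm4070 (left) and of Ifit3 with Ifit3b (right) in the 4 libraries, 1 bar per library. Gvin1 had counts only in Sp8 cKO. The stacked totals were highest in Sp8 cKO for both pairs, at 22 and 4.37 CPM.

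Scaled by exon length, so that genes can be set beside each other, Ifi27, Irf9 and Ifi35 had high levels and were past the size rule in no comparison. Ifi27 stood at 5.32 to 5.83 CPM per kb of exon, Irf9 at 3.64 to 4.79 and Ifi35 at 3.36 to 4.45 across the 4 libraries. Xaf1 ran from 1.17 in wildtype to 5.87 in Sp6 cKO. Isg15 stood at 1.37 CPM per kb in Sp8 cKO and at 0.17 to 0.24 in the other libraries. In all, 19 members had fewer than 50 counts in every library and 8 had at least 100 in every library.

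Against wildtype the members' median log2 ratio was below 0 in Sp6 cKO and Sp6+Sp8 cKO and above 0 in Sp8 cKO, and Xaf1 was higher in all 3. In Sp6 cKO 3 members were lower (Mx2, Iigp1 and Ifit3b) and 1 was higher (Xaf1), where 2.16% of all genes were lower and 2.24% higher. Mx2 and Ifit3b reached 1 CPM in wildtype and not in Sp6 cKO, and could be called lower only. Iigp1 was 2.67-fold lower (1.87 to 3.90), Mx2 4.35-fold (1.31 to 22.7) and Ifit3b 2.85-fold (1.07 to 9.55), and the median log2 ratio was -0.14. In Sp8 cKO 3 were higher (Isg15, Xaf1 and Gvin1) and none was lower, where 2.27% of all genes were higher and 1.55% lower. Isg15 and Gvin1 passed the CPM minimum there through Sp8 cKO alone. The median there was 0.24. Isg15 was 5.61-fold higher there (1.73 to 23.6). In Sp6+Sp8 cKO only Xaf1 was past the rule, where 2.84% of all genes were higher and 2.95% lower. The median there was -0.11. In Sp6 cKO and in Sp6+Sp8 cKO against wildtype, 30 members reached 1 CPM in at least 1 of the 2 libraries and were compared. The medians over all genes lay between -0.02 and -0.01 in these 3 comparisons. They share the wildtype library, the only one of batch 3.

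The interferon genes themselves were barely detected. Of 12 interferon genes none reached 1 CPM, and their counts summed to 3 in wildtype and 1, 6 and 8 in the Sp6, Sp8 and Sp6+Sp8 cKO libraries. Ifnk, the interferon of keratinocytes, made up 3, 1, 2 and 8 of these. Ifna2 and Ifna13 had 2 counts each, both in Sp8 cKO. Ifnb1, Ifng, Ifne, Ifnl2 and Ifnl3 had 0 counts in every library, which allows up to 0.14 CPM in wildtype and 0.23, 0.24 and 0.20 in the Sp6, Sp8 and Sp6+Sp8 cKO libraries.

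Of 9 receptor and kinase genes, among them Ifnar1, Ifnar2, Jak1 and Tyk2, none was past the rule in any comparison, and their summed level lay between 391.8 and 412.1 CPM. Below that size, Tyk2 was 1.40-fold higher in Sp8 cKO than in Sp6 cKO (1.21 to 1.63) and 1.29-fold lower in Sp6+Sp8 cKO than in Sp8 cKO (1.12 to 1.48). Ifngr2, a receptor chain for interferon gamma, was 1.30-fold higher in the latter comparison (1.13 to 1.51). None of 16 genes of nucleic acid sensing upstream of interferon, and none of 15 measured regulators outside the members, was past the rule in any comparison. Their median log2 ratios in Sp8 cKO against Sp6 cKO were -0.14 and 0.02.

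Among 34 measured interferon-stimulated genes outside the 37, the median log2 ratio in Sp8 cKO against Sp6 cKO was 0.19. Of the 34, 23 lay above 0, against 50.4% of all measured genes. By the size rule 1.75% of all genes compared were higher and 1.35% lower. Of the 34, 2 were higher and none was lower. The 2 higher genes were Slfn8, a Schlafen family gene at 2.73-fold (1.56 to 4.99), and Cxcl10, a chemokine that attracts T cells, at 3.41-fold from 20 against 6 counts (1.32 to 10.4). In Sp6+Sp8 cKO against Sp8 cKO Oas1b and Slfn8 were lower, where 2.8% of all genes were lower. There 5 of 34 lay above 0, against 47.5% of all measured genes, and the median was -0.22. In Sp6+Sp8 cKO against Sp6 cKO only Cxcl10 was past the rule, at 2.79-fold higher (1.08 to 8.5). Ifi205 and Mndal, both of the DNA-sensing Ifi200 family, whose genes share sequence, were higher in all 3 cKO libraries than in wildtype. Ifi205 stood at 4.0 CPM in wildtype and at 8.76, 10.5 and 8.97 CPM in Sp6, Sp8 and Sp6+Sp8 cKO, and Mndal at 1.43 against 3.8, 3.26 and 4.23 CPM.

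Of 11 measured GTPases outside the 37, Tgtp1 and Gm4951 were higher in Sp8 cKO than in Sp6 cKO, at 4.10-fold (1.85 to 10.3) and 4.35-fold (1.42 to 17.8), and none was lower. The shares of all genes in this comparison were 1.75% higher and 1.35% lower. Tgtp1 had 57 counts in wildtype and 8, 32 and 20 in the Sp6, Sp8 and Sp6+Sp8 cKO libraries. Tgtp2 was lower in Sp6+Sp8 cKO than in Sp8 cKO, and Gbp10 lower in the Sp6+Sp8 than in the Sp6 cKO library. Tgtp1 and Tgtp2 are close copies, so their separate counts are uncertain. Of 9 measured interferon gamma-response genes, Cxcl9 and Cxcl10 were higher in Sp8 cKO than in Sp6 cKO, Cxcl9 at 5.63-fold from 22 against 4 counts (1.91 to 22.5). Cxcl10 is also among the other interferon-stimulated genes above, so the same gene enters both counts. Class I antigen presentation genes had a median log2 ratio of 0.27 in the same comparison, with 13 of 15 above 0 and none past the rule. H2-K1, a classical class I gene, stood at 24.7, 35.0, 48.5 and 37.9 CPM in wildtype, Sp6, Sp8 and Sp6+Sp8 cKO. The more abundant H2-D1 stood at 80.3, 131.4, 158.6 and 164.4 CPM in the same order, highest in Sp6+Sp8 cKO. Against wildtype, H2-D1 was past the rule in Sp6+Sp8 cKO, at 2.05-fold higher (1.93 to 2.18). H2-Q7, with 28 counts in wildtype, was past it in Sp6, Sp8 and Sp6+Sp8 cKO. It was 2.59-fold (1.57 to 4.33), 3.76-fold (2.37 to 6.11) and 3.18-fold (2.0 to 5.2) higher. Shared sequence was measured for the members only, so how reads were divided among class I genes was not tested. H2-T22, a ligand of some gamma-delta T cells, was 2.77-fold lower in the Sp6+Sp8 than in the Sp6 cKO library (1.75 to 4.48). Against wildtype, H2-T22 and Psmb10 were lower past the rule in Sp6+Sp8 cKO, and Psmb10 also in Sp6 cKO.

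Markers of immune cells differed from list to list in their order across the libraries. T and NK cell markers had a summed level of 6.26 CPM in wildtype and 22.8, 9.84 and 21.5 in the Sp6, Sp8 and Sp6+Sp8 cKO libraries. Of 5 measured, Cd3e, Cd3g and Trdc were lower in Sp8 cKO than in Sp6 cKO, the direction opposite to that of most members and the same as that of Xaf1. Their part in the level of Xaf1 was not tested. In the same comparison Cd4, with 35 counts in Sp6 cKO and 28 in Sp8 cKO, stayed within the rule. Trac, with 6 and 13 counts, went the other way, also within the rule. The NK cell markers Nkg7 and Klrb1c had 1 to 6 counts in each library, so the summed level says little about NK cells. Macrophage and monocyte markers summed to 210.6, 294.4, 309.3 and 247.8 CPM, highest in Sp8 cKO as for most members. Of these 10 markers, 8 had a log2 ratio above 0 in Sp8 cKO against Sp6 cKO (median 0.09) and 10 below 0 in Sp6+Sp8 cKO against Sp8 cKO (median -0.46), the members' directions. By the size rule, 0 of 10 were past it in the first and 1 of 10, Fcgr1, was lower in the second. Leukocyte markers summed to 110.7, 165.4, 157.0 and 134.8 CPM, and neutrophil markers to 38.7, 92.9, 69.2 and 110.3 CPM. Within the neutrophil list, S100a8, at 8.83, 50.2, 30.6 and 69.2 CPM, and S100a9 had the order of the sum. Mpo, at 15.8, 12.6, 17.2 and 6.17 CPM, Ly6g and Retnlg were instead lowest in Sp6+Sp8 cKO. Csf3r and Cxcr2 were highest in Sp6 cKO. B cell markers summed to 15.5, 17.2, 19.9 and 10.5 CPM and endothelial markers to 198.8, 203.4, 217.5 and 163.0 CPM, each highest in Sp8 cKO and lowest in Sp6+Sp8 cKO. The 7 markers of plasmacytoid dendritic cells, a main source of type I interferon, summed to 230.6, 247.7, 245.9 and 228.1 CPM, most of it from Tcf4, which many cell types express. Ccr9 stood at 6.50 to 9.07 CPM, and Klk1 was 2.54-fold higher in Sp8 cKO than in wildtype (1.58 to 4.11). Siglech had 7 to 9 counts in each library and Cd300c 0 in all. The part of cell makeup in the members' levels was not tested. The 7 nail and hair markers, keratins with Lef1 and Hoxc13, summed to 3961, 4186, 4622 and 1988 CPM, lowest in Sp6+Sp8 cKO. Of these markers, Lef1 alone was not lowest there, at 40.0, 31.3, 43.9 and 41.9 CPM. The part of the difference in the summed nail and hair markers in the members' levels was not tested either.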

How the data were processed

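The authors deposited estimated counts per gene, not scaled for depth. Per the submitters' processing notes, build GRCm38 and the tools Salmon, STAR, featureCounts, Trim Galore 0.6.4, deepTools and edgeR were used, in roles not stated. Which annotation release was counted was not given in the sources used here. Libraries, per the labels' protocols, were poly-A selected and strand-specific, with paired reads of 150 bp. Pooling of animals is not stated. A further sample column (1) of the table could be tied to no listed sample and was left out.

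Counts were rounded to whole numbers. CPM was scaled by TMM (edgeR 4.0.16, R 4.3.3), and log2 ratios used a prior count of 2. Counting intervals of ratios are exact Clopper-Pearson 95% intervals conditional on the sum of both counts, and those of sums are exact Poisson intervals. PCR reads without molecular identifiers are not independent molecules, so these may be too narrow. A fold against 0 counts uses a floor of 3 counts and is a lower bound. Positions, exon lengths and transcripts for the 31-base word comparison came from GENCODE M21, in which 98.8% of gene identifiers were found, and promoters from RefSeq. The procedure was tested on simulated data. Counts there varied by counting error only and no scarce gene was changed. Spread between libraries and the scarce members were therefore not covered.

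The members and gene lists were chosen with earlier results of these data known. Values in each library are given for members past the size rule in any comparison or among the 10 highest by mean CPM, and for some others, and from each other pathway list up to 4 genes per comparison past the rule could be named. The highest and lowest genes of a list, H2-K1, Gm4070, Gm1966 and the neighbours of Xaf1 were added after their values were seen. Of 44 other interferon-stimulated genes, 40 were in the table. One gene of the pathway lists is not reported here and was left out of its list.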

Additional observations from a re-analysis of the deposited data

Results flagged for a closer look

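Ifih1 differed in opposite directions with Sp6 deletion on the 2 backgrounds. Its log2 ratio was 0.39 in Sp6 cKO against wildtype and -0.42 in Sp6+Sp8 cKO against Sp8 cKO, each with a counting interval that excludes no difference and neither past the size rule. With 1 library per group the difference between the 2 was not tested, and the first comparison also crosses batches.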

How the results depend on the processing

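Counts of members past the size rule and medians were recomputed with DESeq2 1.42.0 size factors, library totals, totals without the 20 most abundant genes, a prior count of 0.5, a CPM minimum of 5 or none, and lists with close copies left out or summed. A mean of at least 1 CPM over the 4 libraries was also tried. Of 120 such values, 109 stayed within the limits set for a change. The other 11 were counts. For a median, the limits were the counting interval of the 1 member that sat at the median, which is wide for a scarce gene. In Sp6 cKO against wildtype that member was Isg15, from 2 against 4 counts, with an interval of 0.17-fold to 13.1-fold lower. That the medians stayed within such limits therefore says little about how stable they are. With a CPM minimum of 5, the count went from 8 to 4 in Sp8 cKO against Sp6 cKO (3 higher, 1 lower), from 8 to 3 in Sp6+Sp8 cKO against Sp8 cKO and from 4 to 2 in Sp6 cKO against wildtype. Without members whose families hold close copies (Ifit3, Ifit3b, Oas1a, Gvin1, Iigp1 and Trim30a) these counts were 5, 4 and 2. That list was set by hand and not by the share of 31-base words found in other genes. Iigp1, at 6.9%, was left out, while Igtp at 15.9%, Isg15 at 12.8% and Mx2 at 8.0% stayed in. Without Gvin1 and Xaf1, an alternative chosen after seeing the data, 1 member was past the rule in Sp8 cKO against wildtype (from 3) and 0 in Sp6+Sp8 cKO against wildtype (from 1). With a mean of at least 1 CPM, also chosen after seeing the data, the counts were 5 in Sp8 cKO against Sp6 cKO, 5 in Sp6+Sp8 cKO against Sp8 cKO and 2 in Sp6 cKO against wildtype. Fewer members enter each of these. Ratios of single members were recomputed only with the other library scalings and the prior count of 0.5. The CPM minimums and changed lists, which moved the counts above, were not part of this. Of these 480 ratios, 1 crossed the rule: Ifit3 in Sp6+Sp8 cKO against Sp8 cKO, at -0.99 with totals without the 20 most abundant genes. No paired analysis was possible because each group has 1 library, and no replicate could be left out. Depth limits the 19 members with fewer than 50 counts in every library, among them Isg15, Mx2, Usp18, Dhx58 and Ifit3b, which were past the rule in at least 1 comparison.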
